A study of Mus musculus with 4 samples.

Results

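The 10 genes described here encode enzymes that modify collagen after translation: the lysyl oxidases *Lox*, *Loxl1*, *Loxl2*, *Loxl3* and *Loxl4*, the lysyl hydroxylases *Plod1*, *Plod2* and *Plod3*, and the catalytic subunits of prolyl 4-hydroxylase *P4ha1* and *P4ha2*. They were picked by gene symbol, and all 10 were found among the 53703 features of the count tables. Their counts were read in 4 single-cell RNA sequencing libraries, made with a droplet method, of cells from the metaphysis of mouse femur and tibia, depleted of blood lineage cells. The 2 mutant libraries come from Lats2iΔEC mice, which carry floxed *Lats2* alleles and the Cdh5(PAC)-CreERT2 transgene, a tamoxifen-inducible Cre driven by an endothelial promoter. The 2 control libraries come from littermates without the Cre transgene, and both groups received tamoxifen as young animals, were on a C57/BL6 background and were 12 weeks old when analysed. *Lats2* encodes a kinase of the Hippo pathway that restrains the transcriptional co-regulators YAP1 and TAZ, and the design targets it in endothelial cells, while the other cells keep their floxed alleles unless they express the Cre.

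A collagen chain passes through a sequence of enzymes before it becomes a stable fibre. Prolyl 4-hydroxylases hydroxylate prolines in the endoplasmic reticulum, which the triple helix needs to be stable at body temperature, and lysyl hydroxylases hydroxylate lysines, which sets the kind of cross-link that can form later. Outside the cell, lysyl oxidases oxidize lysines and hydroxylysines of collagen, and of elastin, and so start the covalent cross-linking that makes a matrix stiff and hard to degrade. The hydroxylases need molecular oxygen, and *P4ha1*, *P4ha2*, *Plod2*, *Lox*, *Loxl2* and *Loxl4* are known targets of the hypoxia-inducible transcription factors (HIF). Cross-linking enzymes are also widely studied in fibrosis, the pathology that the study describes in these mutant bones.

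The libraries hold between 69636600 and 85899079 unique molecular identifiers (UMIs), and 5119 to 6813 barcodes per library passed the filters, with a median of 7574 to 8181 UMIs. Any 2 libraries share between 6 and 16 of these barcodes. Cells were assigned to endothelial cells (EC), bone marrow stromal cells (BMSC), osteoblasts (OB), smooth muscle cells and pericytes (SMC), chondrocytes (CHO) and fibroblasts by fixed marker genes, none of them a collagen gene or an enzyme described here. A cell also had to lie in a cluster of the same name. The variable genes used for clustering included *Lox*, *Loxl2*, *Loxl4* and *P4ha2*, so the classes are not independent of these enzymes. None of the markers of a class was under 1 CPM (UMIs per 1000000 UMIs of the class) in every library of that class, but fibroblasts also held chondrocyte markers at a summed 2940 to 4119 CPM beside 5917 to 8705 CPM of their own. Each library gave 535 to 827 ECs, 740 to 2208 BMSCs, 101 to 571 OBs, 272 to 423 SMCs, 1290 to 1928 CHOs and 87 to 102 fibroblasts. Barcodes without a named class made up over 25% of each mutant library and under 15% of each control library. In ECs, *Lats2* stood at 92.0 and 97.2 CPM in mutants and at 134 and 124 CPM in controls, a change on the log2 scale of −0.38 (standard error 0.0810, edgeR adjusted p = 0.00187), although the counts cover introns and exons alike and do not isolate the deleted part. Both mutants were also below both controls in BMSCs (76.1 and 84.0 against 92.8 and 89.9 CPM) and, by smaller gaps, in SMCs, CHOs and fibroblasts, while the genotypes overlapped in OBs and, among ECs, in those of the bone marrow (87.9 and 90.4 against 104 and 89.8 CPM).

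In control bone the enzymes differed in their order of cell types, although *Loxl4* and *P4ha1* had the same order by mean CPM. Levels are given in CPM, the UMIs of a gene scaled by the UMI total of all cells of a class in a library, and they were compared between classes and not between genes. *Lox*, the founding lysyl oxidase, stood at 659 and 686 CPM in OBs, at 175 and 163 CPM in BMSCs and at 11.4 and 9.98 CPM in ECs. OBs thus held 3.97 times the level of BMSCs, and the edgeR difference between these classes was 2.86 on the log2 scale (standard error 0.0615, adjusted p = 2.55e-16), in a comparison that called 79.6% of all genes. The edgeR differences between classes use TMM scaling across classes, so they differ in size from the folds of CPM. Fibroblasts, SMCs and CHOs followed BMSCs in that order, and no neighbouring classes overlapped. *Loxl2*, which acts on basement membrane and fibrillar collagen, had 466 and 436 CPM in OBs and 262 and 259 CPM in CHOs, a fold of 1.73 (log2 difference 1.35, standard error 0.0552, adjusted p = 1.06e-12), where 75.6% of all genes were called. SMCs and ECs closed the order of *Loxl2* with 46.0 and 37.9 CPM and with 21.8 and 28.6 CPM.

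*Loxl1*, an oxidase known for elastic fibres, led in BMSCs with 297 and 302 CPM, ahead of fibroblasts with 157 and 183 CPM (fold 1.76, log2 difference 0.72, adjusted p = 2.88e-05, 52.7% of genes called between these classes). It was near the lower limit in OBs, at 3.56 and 2.00 CPM, and in ECs, at 2.04 and 3.21 CPM, and these classes overlapped. *Loxl3* led in CHOs with 163 and 161 CPM against 60.1 and 60.2 CPM in BMSCs (fold 2.69, log2 difference 1.75, adjusted p = 1.68e-14, 82.6% of genes called). *Loxl4* also led in CHOs, with 40.9 and 43.4 CPM against 13.4 and 17.5 CPM in OBs (fold 2.73, log2 difference 0.90, adjusted p = 1.03e-07), and was under 4 CPM in the other four classes.

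Among the hydroxylases, *Plod1* was the member with an endothelial maximum. It stood at 164 and 158 CPM in ECs and at 77.8 and 71.4 CPM in fibroblasts, a fold of 2.16 (log2 difference 1.02, adjusted p = 3.53e-06, 61.8% of genes called), and lay lowest in BMSCs at 30.8 and 35.0 CPM. *Plod2*, whose product hydroxylates the lysines of collagen telopeptides, had 1194 and 1172 CPM in CHOs and 738 and 707 CPM in OBs, against 30.9 and 32.3 CPM in ECs. *P4ha1* followed the same order at its top, with 350 and 351 CPM in CHOs and 227 and 219 CPM in OBs. Although the CHO and OB libraries of both genes did not overlap, the test with TMM scaling across classes did not call the difference for *Plod2* (adjusted p = 0.0747) or *P4ha1* (adjusted p = 0.0714). *P4ha2* stood at 110 and 117 CPM in CHOs and at 114 and 111 CPM in OBs, which overlapped, and *Plod3* lay between 46.2 and 51.7 CPM in BMSCs and CHOs. For these last genes the scaled difference turned against the CPM order (−0.54 for *P4ha2* and −0.21 for *Plod3*), so no order is given for their leading classes.

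**Figure D1:**
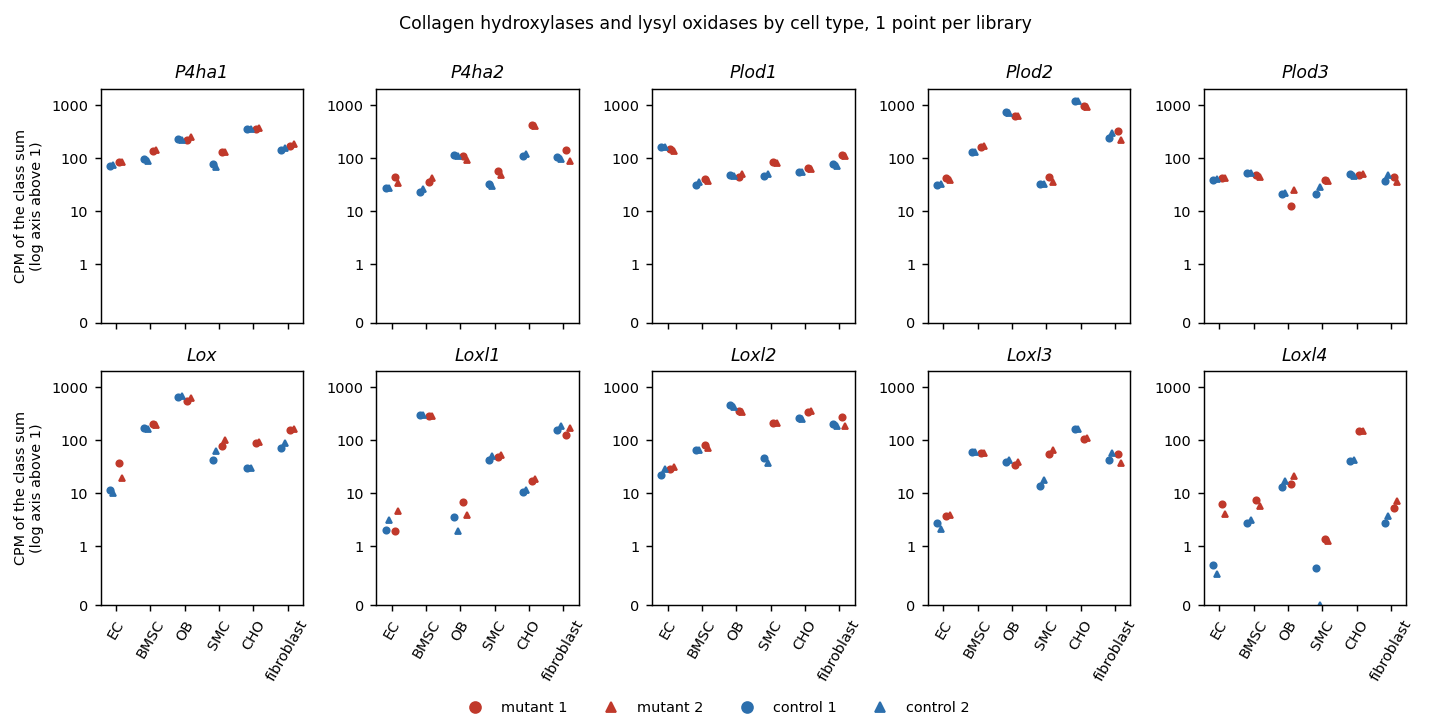
Level of each enzyme in 6 cell classes, as CPM of the class sum (y axis, logarithmic above 1), with 1 point per library (red mutants, blue controls). In CHOs the mutant libraries of *P4ha2* (415 and 399 CPM) and *Loxl4* (148 and 152 CPM) stand clear of the controls, and *Loxl2* does so in SMCs (209 and 211 CPM).

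The comparison of mutant with control libraries asks how the loss of *Lats2* in endothelium moves collagen-modifying enzymes in each class. Counts were summed per library and class and tested with edgeR over the genes of the class that were seen in 20% or more of its cells in mutants or in controls, and a gene was called at an adjusted p of 0.05 or under. Of 60 combinations of gene and class, 46 passed this filter, 20 were called higher in mutants and 3 lower. SMCs had 7 of the 10 enzymes higher, where 23.1% of the 4943 genes tested were higher and 23.1% lower. CHOs had 6 higher and 2 lower, where 31.2% of 6724 genes were higher and 31.1% lower. BMSCs had 4 higher and none lower, against 28.2% and 26.9% of 5240 genes. ECs had 2 higher and none lower, against 30.3% in each direction of 5820 genes. OBs had 1 lower and none higher, where 4.40% of 6175 genes were higher and 1.62% lower, and fibroblasts had 1 higher, where 1.54% of 5575 genes were higher and 0.951% lower. These percentages are shares of the genes that passed the filter, as 8 of the 10 enzymes did in SMCs, 9 in CHOs, OBs and fibroblasts, 7 in BMSCs and 4 in ECs. Among the enzymes that passed, the share called higher was larger than that of all genes in each class other than OBs. A gene can pass the filter through the genotype in which it is high, so these counts are a description.

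With 4 libraries in 2 groups, the smallest p of an exact permutation test (two-sided) is 0.333, so the calls rest on the fit across all genes. In bulk sums of a class, more cells of a subtype and more RNA per cell cannot be told apart, and the make-up of the classes differed between genotypes. Cluster 2 held 26.2% of mutant and 0.115% of control CHOs. Other CHO clusters differed too: cluster 8 held 4.08% and 33.9%, cluster 6 10.4% and 28.3%, and cluster 9 20.2% and 9.66%. Values of CHOs given without cluster 2 keep these clusters, so they still compare sums of differing make-up. Cluster 15 held 51.1% of mutant and 7.52% of control SMCs, and cluster 14 held 33.2% of mutant and 2.80% of control BMSCs. Among ECs, cluster 7 held 17.5% of mutant and 54.1% of control cells and cluster 20 held 23.1% and 4.64%. Without clusters 2 and 15, in which over 90% of the barcodes came from mutants, the calls fell to 12 higher and 3 lower. None of the 7 calls in SMCs was left then: *Lox*, *P4ha1* and *Plod1* were tested and not called, and *Loxl2*, *Loxl3*, *Plod3* and *P4ha2* no longer reached the expression filter.

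**Figure D2:**
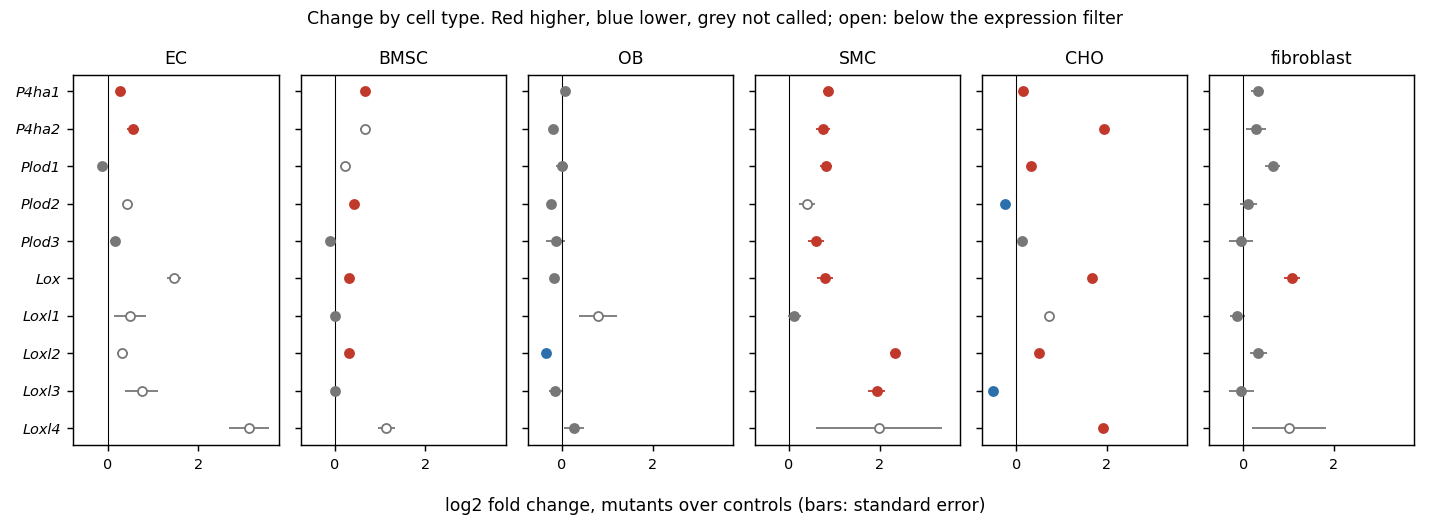
Log2 fold change of mutants over controls for each enzyme in 6 classes (x axis, bars show the standard error of the fit). Filled red points were called higher, filled blue points lower, grey points were not called, and open points lie below the expression filter; SMCs and CHOs hold 13 of the 20 higher calls.

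*P4ha1* (ENSMUSG00000019916, GRCm39 chromosome 10 from 59159092 to 59209126) was higher in mutants in 4 classes. In BMSCs it stood at 137 and 143 CPM in mutants and at 96.1 and 88.2 CPM in controls, a change on the log2 scale of 0.68 (standard error 0.0607, edgeR adjusted p = 2.65e-08). In SMCs it stood at 131 CPM in each mutant library and at 77.9 and 69.2 CPM in controls, a change of 0.85 (adjusted p = 1.67e-05). Without cluster 15 the SMC value was −0.24 and not called (adjusted p = 0.290), and in cluster 13, the other main cluster of SMCs, mutants lay below controls (59.6 and 58.6 against 75.8 and 67.0 CPM). ECs had 84.9 and 85.5 CPM against 72.3 and 74.9 CPM, a change of 0.28 (adjusted p = 0.00435). The mutants lay above both controls in the sums of each of these classes, and the change in ECs missed the threshold with DESeq2 (adjusted p = 0.0680). In CHOs *P4ha1* rose by 0.15 (359 and 375 CPM against 350 and 351 CPM, adjusted p = 0.0101), and this call was lost when library totals replaced TMM factors (adjusted p = 0.190), with no gene filter (0.124), with the filterByExpr filter of edgeR (0.0750) and without mutant replicate 2 (0.0844). OBs, at 217 and 250 CPM against 227 and 219 CPM, overlapped.

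*P4ha2* (ENSMUSG00000018906, chromosome 11 from 53981553 to 54022494), the second catalytic subunit, moved most in chondrocytes. It stood at 415 and 399 CPM in the CHOs of mutants and at 110 and 117 CPM in those of controls, a change on the log2 scale of 1.93 (standard error 0.0511, edgeR adjusted p = 2.62e-11). Without cluster 2 the change was 1.08 and still called. SMCs had 57.1 and 47.6 CPM against 32.6 and 30.2 CPM, a change of 0.75 (adjusted p = 0.00176), and ECs 43.0 and 34.1 CPM against 26.6 and 27.8 CPM, a change of 0.56 (adjusted p = 0.00253). All of these mutant sums lay above their controls, but the clusters within SMCs and ECs did not all follow. In cluster 13 of SMCs *P4ha2* of mutants lay below controls (24.2 and 21.0 against 32.3 and 30.4 CPM), as in contractile SMCs (31.9 and 20.6 against 34.7 and 35.5 CPM), and in cluster 15 above them (82.1 and 66.7 against 35.5 and 27.2 CPM). In none of the EC clusters were both mutants above both controls: *P4ha2* overlapped in cluster 11 (71.3 and 56.5 against 64.1 and 68.5 CPM), cluster 20 (55.5 and 36.6 against 34.3 and 47.3 CPM) and cluster 7 (10.1 and 8.33 against 10.4 and 9.08 CPM), and was lower in mutants in cluster 17 (18.7 and 25.1 against 29.8 and 35.4 CPM). The mutant library with the higher *P4ha2* in ECs also held more *Col10a1*, a chondrocyte collagen, there (423 CPM against 89.3 CPM in the other mutant). The part of this in the result was not tested. In BMSCs, at 35.7 and 41.8 CPM against 23.2 and 25.5 CPM, *P4ha2* fell below the expression filter, and OBs did not pass the test with 109 and 90.6 CPM against 114 and 111 CPM.

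The 250 bases before the RefSeq transcription start of the enzymes were searched on both strands for the HIF core motif, spelled ACGTG or GCGTG. RefSeq promoters (table of build GRCm38.p6) were matched for 5 of the 10 enzymes, namely *P4ha1*, *P4ha2*, *Loxl4*, *Plod1* and *Plod3*, and each was placed on GRCm39 by an exact and single match. *P4ha1* and *P4ha2* held 3 matches each, *Plod3* held 4, and *Loxl4* and *Plod1* held 1 each. Of all 32851 promoters, 38.6% held at least 1 match in the same window and 16.6% held ACGTG itself, which was found in *P4ha1*, *P4ha2* and *Plod3*. The windows of the prolyl hydroxylases and of *Loxl4*, the most changed oxidase of CHOs, are printed on the strand of the gene, with the motif in capitals; a motif on the other strand reads CACGT or CACGC.
*P4ha1*, 163 bases before the start, chr10:59158945-59158969, plus strand: gggaacggtgGCGTGgcaggagctc
*P4ha1*, 126 bases before the start, chr10:59158982-59159006, plus strand: ctgcgtcctcGCGTGggccagccta
*P4ha1*, 16 bases before the start, chr10:59159092-59159116, plus strand: tgacagagcgCACGTagcgagggct
*P4ha2*, 107 bases before the start, chr11:53991633-53991657, plus strand: gtgccggtccCACGCggcgcaagga
*P4ha2*, 78 bases before the start, chr11:53991662-53991686, plus strand: tgcatcgcatACGTGcagcgcgtgg
*P4ha2*, 69 bases before the start, chr11:53991671-53991695, plus strand: tacgtgcagcGCGTGgcggctcggg
*Loxl4*, 162 bases before the start, chr19:42601393-42601417, minus strand: cgtcacccccCACGCtccccgcagc
Distances are counted from the start in the RefSeq table, which is not the start of the gene given above from GENCODE. The RefSeq start of *P4ha2* lies inside the GENCODE gene, downstream of its first base, and so does that of *P4ha1*, whose last window begins at the first base of the GENCODE gene. The last windows of *P4ha2* overlap each other in the genome. The windows of *Plod3* and *Plod1* are not printed. A match describes letters of the promoter and not a bound site, and whether HIF acts on these genes here was not tested.

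The changes of the lysyl hydroxylases went in different directions. *Plod2* (ENSMUSG00000032374, chromosome 9 from 92424119 to 92490494) was higher in the BMSCs of mutants, at 165 and 166 CPM against 129 and 131 CPM, a change on the log2 scale of 0.42 (standard error 0.0548, edgeR adjusted p = 3.28e-06). In CHOs it was lower, at 954 and 937 CPM against 1194 and 1172 CPM, a change of −0.24 (adjusted p = 4.51e-04), which was −0.12 without cluster 2 (adjusted p = 0.0259). The groups did not overlap in either class, and their directions were opposite. OBs lay in the direction of CHOs, with 615 and 609 CPM against 738 and 707 CPM, but the change of −0.24 missed the threshold (adjusted p = 0.0527). It passed with no gene filter (adjusted p = 0.00616), with the replicate number as a block (0.0195), without mutant replicate 1 (0.0296), with markers of the barcode alone (0.0249) and with classes from clusters alone (0.0153).

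*Plod1* (ENSMUSG00000019055, chromosome 4 from 147991574 to 148021356), the lysyl hydroxylase of helical lysines, was higher in the SMCs of mutants, at 84.6 and 81.3 CPM against 45.3 and 50.4 CPM (log2 fold change 0.81, edgeR adjusted p = 2.40e-04), and in CHOs, at 64.0 and 62.9 CPM against 53.6 and 53.7 CPM (0.33, adjusted p = 1.28e-04). Without cluster 15 the SMC value was 0.026 and not called (adjusted p = 0.931), and in cluster 13 the genotypes overlapped (43.5 and 51.1 against 45.6 and 49.4 CPM). Its level in ECs, where controls held the most, was 148 and 135 CPM against 164 and 158 CPM and did not pass the test (−0.12, adjusted p = 0.185), though it did with library totals in place of TMM factors (−0.19, adjusted p = 0.0426). *Plod3* (ENSMUSG00000004846, chromosome 5 from 137015827 to 137025502), which also glycosylates hydroxylysine, was called in SMCs alone, with 38.6 and 36.5 CPM against 21.1 and 29.0 CPM (0.60, adjusted p = 0.0131). That call was lost with DESeq2 (adjusted p = 0.161) and without control replicate 1 (adjusted p = 0.174). In the 5 other classes *Plod3* lay between −0.13 and 0.16 on the log2 scale. In OBs the mutant libraries lay on either side of the controls (12.4 and 24.6 against 21.2 and 21.6 CPM).

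*Lox* (ENSMUSG00000024529) was higher in mutants in 4 classes. CHOs held 88.9 and 95.4 CPM against 30.5 and 30.4 CPM, a change on the log2 scale of 1.68 (standard error 0.0573, edgeR adjusted p = 1.61e-10). Fibroblasts held 156 and 167 CPM against 70.8 and 91.1 CPM, a change of 1.07 (adjusted p = 0.00627), which was 0.20 and not called when cells were assigned from their own markers alone. In the same fibroblast sums the chondrocyte markers stood at 4119 and 3459 CPM in mutants against 2940 and 3036 CPM in controls and the hematopoietic markers at 209 and 297 against 87.5 and 113 CPM; their part in the result was not tested. SMCs held 78.6 and 103 CPM against 42.8 and 62.9 CPM (0.80, adjusted p = 0.00235), and BMSCs 203 and 199 CPM against 175 and 163 CPM (0.32, adjusted p = 1.07e-04). The mutants lay above the controls in all 4 classes, in contrast to OBs, the class with the highest control level, where 545 and 633 CPM in mutants lay below 659 and 686 CPM in controls without passing the test (−0.18, adjusted p = 0.186). That value was −0.098 without mutant replicate 1 and −0.28, then called, without mutant replicate 2 (adjusted p = 0.0264), and it was also called with no gene filter (adjusted p = 0.0450) and with the minimum of UMIs and features as the sole filter on barcodes (0.0380). Without cluster 15 the SMC value was −0.35 and not called, and without cluster 2 *Lox* did not reach the expression filter in CHOs. Outside cluster 2 *Lox* of CHOs overlapped in clusters 1, 6, 8 and 22, was lower in mutants in cluster 9 (41.1 and 49.4 against 64.0 and 116 CPM) and was higher in mutants in cluster 10 (13.3 and 14.5 against 5.28 and 3.14 CPM). The BMSC call was lost with no gene filter (adjusted p = 0.108).

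*Lox* was low in ECs. It stood at 37.2 and 19.7 CPM in mutants and at 11.4 and 9.98 CPM in controls, in too few cells to pass the filter. A fit without the filter gave 1.46 (standard error 0.163, edgeR adjusted p = 1.51e-17). With the filterByExpr filter of edgeR the same value had a standard error of 0.269 (edgeR adjusted p = 0.00184). The mutant libraries differed, with 56.9 and 4.99 CPM in cluster 20, where both controls held 0 CPM. Free RNA, as estimated from empty droplets, would account for 2.48 and 2.65 CPM in these mutant libraries and for 7.64 and 6.79 CPM in the controls. By this estimate the control level of *Lox* is near the background. The same estimate exceeds the observed *Col1a1* and *Col1a2* in control ECs, so it can be too high there. The higher mutant library is also the library with the higher *Col10a1*, a chondrocyte collagen, in ECs (423 CPM, against 89.3 CPM in the other mutant), and the part of this in the result was not tested.

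*Loxl2* (ENSMUSG00000034205, chromosome 14 from 69846209 to 69933283) showed the largest change of the 10 enzymes in SMCs. It stood at 209 and 211 CPM in mutants and at 46.0 and 37.9 CPM in controls, a change on the log2 scale of 2.34 (standard error 0.117, edgeR adjusted p = 2.41e-09). In cluster 13 of SMCs *Loxl2* of mutants lay below controls (12.1 and 21.0 against 29.3 and 23.9 CPM), and in cluster 15 above them. CHOs held 345 and 353 CPM against 262 and 259 CPM (0.51, adjusted p = 5.38e-07, and 0.33 without cluster 2) and BMSCs 83.4 and 72.6 CPM against 64.9 and 67.3 CPM (0.31, adjusted p = 0.00195). In OBs the order turned, with 363 and 349 CPM against 466 and 436 CPM (−0.34, adjusted p = 0.00680). The groups did not overlap in any of these classes, although the OB call was lost without control replicate 1 (−0.29, adjusted p = 0.330) or 2 (−0.39, adjusted p = 0.0652) and the BMSC call without mutant replicate 1 (0.20, adjusted p = 0.0566). In the clusters of CHOs *Loxl2* of mutants was lower in cluster 9, its highest control cluster (490 and 481 against 724 and 714 CPM), and overlapped in cluster 8, and in columnar CHOs it lay slightly below controls (285 and 281 against 293 and 288 CPM). The OB call was also lost with a stricter margin between class scores (adjusted p = 0.0775), and the BMSC call with no gene filter (adjusted p = 0.226).

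*Loxl3* (ENSMUSG00000000693, chromosome 6 from 83011152 to 83029543) moved in opposite directions in SMCs and CHOs. SMCs held 55.0 and 64.6 CPM in mutants against 14.0 and 17.6 CPM in controls (log2 fold change 1.93, standard error 0.188, edgeR adjusted p = 1.33e-06), and CHOs held 105 and 110 CPM against 163 and 161 CPM (−0.50, adjusted p = 7.74e-07, and −0.28 without cluster 2). In cluster 13 of SMCs *Loxl3* overlapped (12.9 and 20.3 against 13.3 and 17.6 CPM). In cluster 15 of SMCs it was higher in mutants (87.0 and 96.5 against 21.3 and 18.1 CPM). *Loxl4* (ENSMUSG00000025185, chromosome 19 from 42580711 to 42601252) was called in CHOs, with 148 and 152 CPM against 40.9 and 43.4 CPM (1.92, standard error 0.0504, adjusted p = 2.62e-11). Without cluster 2 that change was 0.29 and still called. The mutants of *Loxl4* were above the controls in ECs as well, at 6.33 and 4.12 CPM against 0.679 and 0.535 CPM, and in BMSCs, at 7.50 and 5.72 CPM against 2.75 and 3.12 CPM, but both classes lie below the filter, and the control level in ECs rests on 4 and 3 UMIs. The free RNA estimated for *Loxl4* in ECs came to 1.30 and 1.17 CPM in mutants and to 0.383 and 0.393 CPM in controls. The mutant library with the higher *Loxl4* in ECs is that with 423 CPM of *Col10a1* there, and the part of this was not tested. *Loxl1* (ENSMUSG00000032334, chromosome 9 from 58195014 to 58220495) was called in none of the 6 classes; in BMSCs, its leading class, it stood at 288 and 283 CPM against 297 and 302 CPM (0.00, adjusted p = 0.983), and it had an unadjusted p under 0.05 in none of the classes in which it passed the filter. In CHOs, where it did not pass, both mutants were above both controls (17.2 and 18.7 against 10.7 and 11.6 CPM), and the fit without the filter gave 0.73 (adjusted p = 1.27e-04).

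Within the classes, subtypes were read by marker scores. In SMCs, 6 of the 7 enzymes called in the class were also called in cells scored as pericytes (*Rgs5*, *Kcnj8*). Pericytes are the mural cells of small vessels, and mutants gave 207 and 209 cells with this score and controls 53 and 51. The study describes *Myh11*-negative cells of its SMC cluster, enriched in mutants, as likely myofibroblasts. How far those overlap the cells scored as pericytes was not tested. Among the cells scored as pericytes, 6 enzymes were higher and none lower, where 16.7% of all genes were higher and 17.0% lower. *Loxl2* stood at 304 and 337 CPM against 132 and 123 CPM (log2 fold change 1.46, edgeR adjusted p = 7.67e-10), *P4ha2* at 75.3 and 70.6 CPM against 22.0 and 21.1 CPM (1.88, adjusted p = 1.42e-05) and *Lox* at 112 and 128 CPM against 25.1 and 73.9 CPM (1.45, adjusted p = 1.64e-05). The control sums of these genes rest on 6 to 42 UMIs. *Loxl3* (1.51), *P4ha1* (0.78) and *Plod1* (0.56) were the others, while *Plod3* overlapped (53.5 and 39.7 against 22.0 and 42.2 CPM). In contractile SMCs (*Myh11*, *Cnn1*) no enzyme was called by edgeR, where 9.02% of genes were higher and 9.15% lower; of the 4 that passed the filter, none had an unadjusted p under 0.05. *Loxl2* and *Loxl3* did not pass the filter in contractile SMCs, but their mutants lay above controls there too, at 74.7 and 30.0 against 17.3 and 14.1 CPM and at 21.6 and 24.2 against 1.87 and 11.8 CPM. The edgeR fit without the filter gave 1.72 for each, with an adjusted p of 0.0320 for *Loxl2* and of 0.0931 for *Loxl3*. In cluster 13, led by *Myh11* and *Acta2*, *Loxl2* of mutants lay below controls (12.1 and 21.0 against 29.3 and 23.9 CPM) and *Loxl3* overlapped. From which clusters the cells scored as contractile came was not read. The difference between the SMC subtypes was not tested. *Lox* in contractile SMCs stood at 45.3 and 69.9 CPM against 50.6 and 65.6 CPM, which overlapped. The SMC marker sum was 17296 and 17972 CPM in the SMCs of mutants and 30215 and 32189 CPM in controls, and that of BMSC markers 1915 and 2179 against 1199 and 1114 CPM, with none of the 10 BMSC markers under 1 CPM in every library; their part in the result was not tested.

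In CHOs the hypertrophic cells (*Ihh*, *Panx3*, *Alpl*), which mineralize their matrix at the base of the growth plate, held the largest changes. Mutants gave 825 and 858 of these cells and controls 409 and 427. *P4ha2* stood at 619 and 611 CPM in mutants and at 129 and 131 CPM in controls (log2 fold change 2.30, standard error 0.0616, edgeR adjusted p = 7.44e-13), *Loxl4* at 286 and 298 CPM against 86.1 and 83.7 CPM (1.85, adjusted p = 6.92e-12) and *Lox* at 168 and 179 CPM against 69.8 and 68.4 CPM (1.39, adjusted p = 2.41e-10). In all, 5 enzymes were higher and 2 lower (*Loxl3* and *Plod2*), where 27.5% of genes were higher and 27.6% lower. Columnar or resting CHOs had 2 higher and 2 lower, against 19.7% and 16.9% of genes. *P4ha2* was among them with 158 and 141 CPM against 82.7 and 90.1 CPM (0.90, adjusted p = 1.82e-06), and *Loxl1* with 28.4 and 36.6 CPM against 19.2 and 18.5 CPM (0.90, adjusted p = 2.83e-04). Among the CHO clusters other than cluster 2, *Loxl1* was higher in mutants in cluster 10 alone (55.8 and 59.2 against 47.0 and 52.3 CPM). It was lower in cluster 8 (3.58 and 1.99 against 4.48 and 5.64 CPM) and cluster 9 (19.3 and 18.3 against 29.1 and 23.2 CPM). In clusters 1, 6 and 22 it overlapped. Surface CHOs (*Prg4*) had 2 higher and 1 lower, against 4.33% and 2.73%, with *P4ha2* at 298 and 266 CPM against 180 and 193 CPM (0.63, adjusted p = 0.00392) and *Loxl3* at 50.1 and 65.1 CPM against 117 and 124 CPM (−1.01, adjusted p = 8.95e-04). *P4ha2* was therefore called higher, and *Loxl3* lower, in all 3 subtypes of CHOs, and *Plod2* lower in the hypertrophic (−0.23) and columnar (−0.22) cells. By cluster, cluster 2 aside, *Plod2* of mutants was below controls in clusters 6, 8, 9 and 22 and overlapped in clusters 1 and 10.

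Enzymes were called higher in both subtypes of BMSCs. Metaphyseal BMSCs (mpMSC; *Postn*, *Limch1*) had 6 enzymes higher and none lower, where 17.8% of genes were higher and 14.4% lower. *Loxl2* stood there at 52.3 and 54.4 CPM against 16.4 and 20.04 CPM (log2 fold change 1.61, edgeR adjusted p = 6.20e-07) and *P4ha1* at 138 and 151 CPM against 78.8 and 77.4 CPM (0.96, adjusted p = 9.77e-07). Diaphyseal BMSCs (dpMSC; *Lepr*, *Adipoq*) had 3 higher and none lower, against 23.3% and 22.0%, and *Loxl2* overlapped in them at 105 and 76.1 CPM against 86.4 and 90.9 CPM; the difference between the subtypes was not tested. *Lox* (0.31 in dpMSCs and 0.56 in mpMSCs), *Plod2* (0.55 and 0.21) and *P4ha1* (0.53 in dpMSCs) were called in both, and *P4ha2* (0.78) and *Plod1* (0.50) in mpMSCs. Cluster 5, led by *Limch1* among others, held 9.12% of mutant and 23.1% of control BMSCs. *Plod1* overlapped there (38.2 and 29.4 against 30.3 and 32.8 CPM) and in cluster 14 (46.2 and 41.3 against 35.2 and 54.3 CPM). *P4ha2* overlapped in cluster 5 (15.6 and 67.7 against 27.3 and 31.7 CPM). In cluster 14 it was higher in mutants (51.6 and 34.7 against 15.6 and 14.0 CPM). The part of this make-up in the mpMSC calls was not tested. Among ECs, arterial cells (aEC) had *Lox* higher, at 44.7 and 53.7 CPM against 31.8 and 29.9 CPM (0.75, adjusted p = 0.0159), where 12.8% of genes were higher and 12.3% lower. Bone marrow ECs (bmEC) had *Plod2* higher, at 51.8 and 56.9 CPM against 30.4 and 32.6 CPM (0.86, adjusted p = 0.00620), where 15.1% of genes were higher and 14.8% lower. In metaphyseal ECs (mpEC) no enzyme was called by edgeR, where 19.8% of genes were higher and 20.8% lower; of the 4 that passed the filter there, none had an unadjusted p under 0.05. Below the filter, both mutants of mpECs were above both controls for *Loxl2* (30.0 and 14.9 against 8.72 and 8.09 CPM) and *Loxl4* (10.4 and 2.76 against 1.12 and 0.599 CPM), as they were for *Plod2*, which passed it (41.0 and 31.2 against 30.4 and 27.6 CPM, adjusted p = 0.168). The higher mutant library in each of these is the library with 423 CPM of *Col10a1* in ECs, and the *Loxl4* sums rest on 18 and 6 UMIs in mutants and 2 and 1 in controls; the part of this in the result was not tested.

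**Figure D3:**
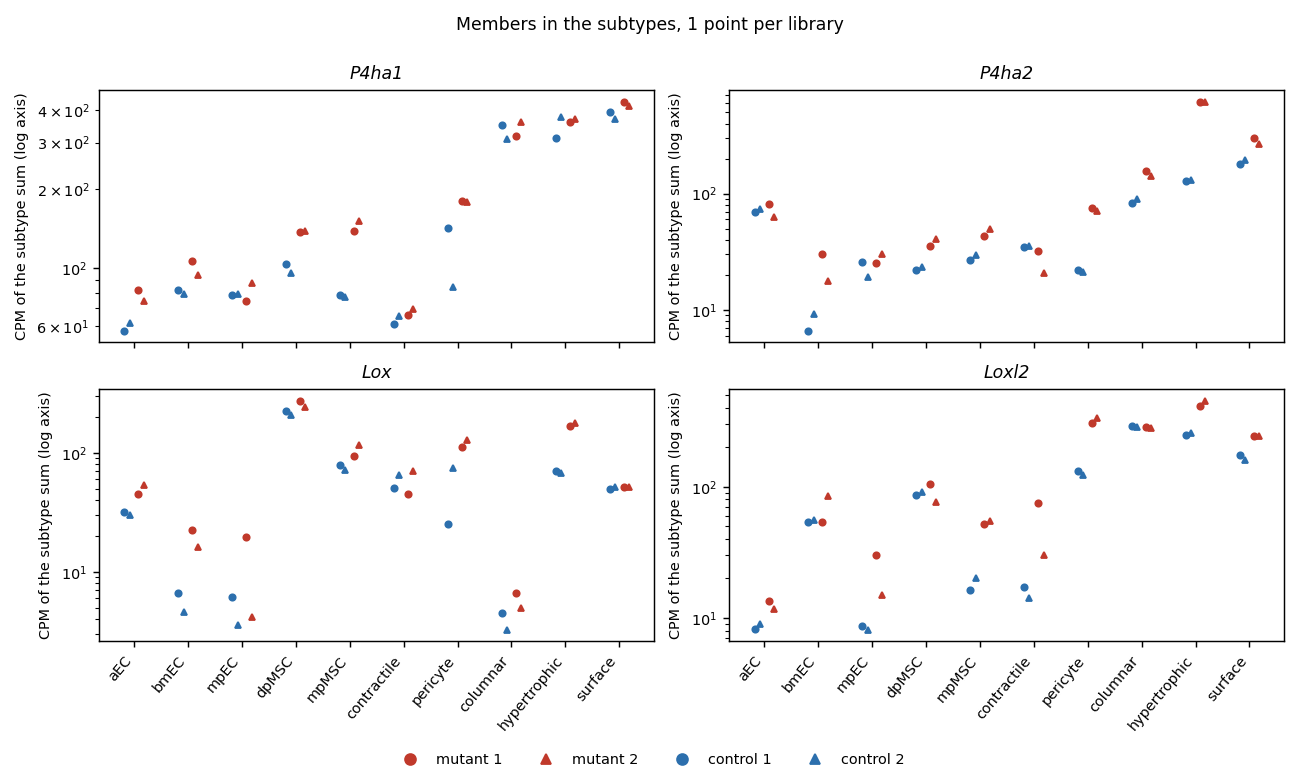
*P4ha1*, *P4ha2*, *Lox* and *Loxl2* in 10 subtypes, as CPM of the subtype sum (y axis, logarithmic), with 1 point per library (red mutants, blue controls). *P4ha2* of mutants is above controls in pericytes and in all 3 subtypes of CHOs, with the widest gap in hypertrophic cells (619 and 611 against 129 and 131 CPM), and *Loxl2* in pericytes and mpMSCs.

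The clusters of CHOs place these values more closely. Clustering used variable genes, which included *Lox*, *Loxl2*, *Loxl4* and *P4ha2*, without integrating the libraries, and *Loxl4* is a leading gene of cluster 2, so values by cluster are descriptions with no test. Cluster 2, led by *Ptgs2*, *Pde11a*, *Rbp4*, *Loxl4*, *Col10a1* and *Ihh*, held 971 CHOs of mutants and 3 of controls. In its mutant cells *P4ha2* stood at 1264 and 1243 CPM, *Loxl4* at 617 and 636 CPM, *Loxl2* at 539 and 553 CPM and *Lox* at 357 and 366 CPM, while *Loxl3* was at 23.5 and 26.1 CPM and *Plod2* at 592 and 599 CPM. By *Col10a1* and *Ihh* among its leading genes, this group of mutant cells was hypertrophic. It had high *P4ha2*, *Loxl4* and *Lox*, and less *Plod2* than any other CHO cluster. Outside it *P4ha2* of mutants was still above controls in cluster 6 (210 and 225 against 139 and 136 CPM), cluster 9 (366 and 312 against 175 and 202 CPM), cluster 1 (245 and 212 against 167 and 173 CPM), cluster 10 (79.2 and 76.5 against 47.0 and 49.2 CPM) and cluster 22, but overlapped in cluster 8. *Loxl4* of mutants was above controls in cluster 6, at 114 and 131 against 80.7 and 82.3 CPM, and in the small levels of clusters 8 and 22, while it lay below them in cluster 9 (56.2 and 59.0 against 61.9 and 65.5 CPM) and overlapped in clusters 1 and 10. *Loxl3* of mutants was below controls in the 6 clusters other than cluster 2, whose 3 control cells were not compared.

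**Figure D4:**
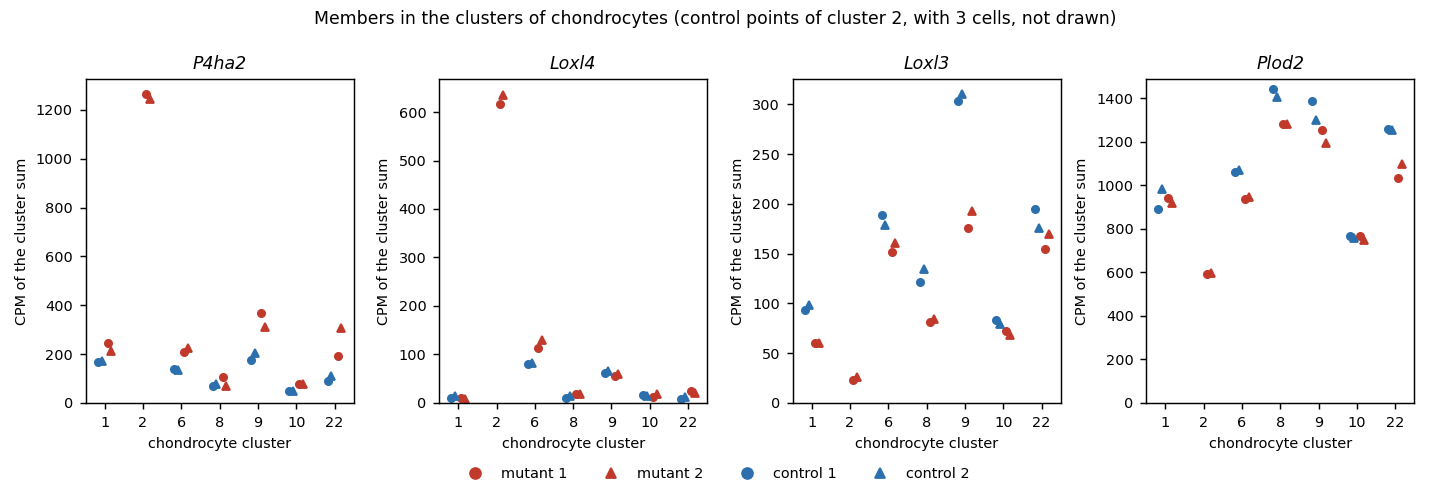
*P4ha2*, *Loxl4*, *Loxl3* and *Plod2* in the 7 clusters of CHOs, as CPM of the cluster sum (y axes from 0), with 1 point per library (red mutants, blue controls; cluster 2 held 3 control cells, which are not drawn). Cluster 2 stands far above the rest for *P4ha2* (1264 and 1243 CPM) and *Loxl4* (617 and 636 CPM) and lowest for *Loxl3* and *Plod2*.

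In SMCs, cluster 15 (led by *Rgs5*, *Cygb* and *Col4a1*) held 420 cells of mutants and 41 of controls, and cluster 13 (led by *Myh11* and *Acta2*) 402 and 504. *Loxl2* stood at 359 and 348 CPM in the mutants of cluster 15 and at 214 and 225 CPM in its controls, against 12.1 and 21.0 and 29.3 and 23.9 CPM in cluster 13. *Loxl2* is among the genes used for clustering, so more cells of cluster 15 and more *Loxl2* per cell cannot be told apart here. In BMSCs, cluster 14 (led by *Mmp9*, *Mmp13* and *Tnfsf11*) held 546 cells of mutants and 122 of controls, and there *Lox* stood at 197 and 185 CPM in mutants against 31.3 and 26.3 CPM in controls, and *P4ha1* at 173 and 180 CPM against 80.2 and 66.5 CPM. In cluster 0, the largest of the BMSCs, *P4ha1* stood at 123 and 134 CPM in mutants against 104 and 96.6 CPM and *Lox* at 234 and 232 CPM against 221 and 211 CPM. *Loxl2* of BMSCs overlapped in cluster 0 (102 and 80.1 against 86.6 and 90.9 CPM) and cluster 5 (17.3 and 30.2 against 19.96 and 21.8 CPM) and was higher in mutants in cluster 14 (79.9 and 77.8 against 15.6 and 35.0 CPM).

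Whether an enzyme moved differently in a class than elsewhere was tested as the genotype effect of that class less the mean effect of the other 5, in 1 edgeR fit with the library as a block. The fit used the full classes and was not repeated without clusters 2 and 15, where no call in SMCs was left. Of 60 differences, 8 were called larger and 14 smaller. In SMCs, *Loxl2* (2.13 on the log2 scale, adjusted p = 1.27e-08), *Loxl3* (1.93), *Plod1* (0.58) and *P4ha1* (0.56) had larger effects, where 9.78% of 8835 genes were larger and 9.73% smaller. In CHOs, *P4ha2* (1.51, adjusted p = 1.31e-09), *Lox* (1.01) and *Loxl1* (0.52) were larger and *Loxl3*, *Plod2* and *P4ha1* smaller, against 16.0% and 11.2% of genes. *Loxl1* lay below the expression filter in CHOs, ECs and OBs. Its sums rest on 12 and 18 UMIs in control ECs and on 10 and 8 in mutant OBs, so the size of its difference is uncertain. In OBs 8 enzymes had smaller effects and none larger, where 2.69% of genes were larger and 5.09% smaller, among them *Lox* (−1.28), *Loxl2* (−1.14) and *P4ha2* (−1.07). The value for *Loxl4* (−1.61) is set against classes with next to no control counts (1 and 0 UMIs in SMCs, 4 and 3 in ECs, 2 and 3 in fibroblasts), so its size is not placed among the others. BMSCs had *P4ha1* larger (0.30) and *Lox* and *Loxl3* smaller, against 4.56% and 6.21%, and ECs had *Plod1* smaller (−0.55), against 12.1% larger and 12.4% smaller. The EC sums differ in make-up, and in no EC cluster was *Plod1* of both mutants below both controls. In fibroblasts no difference was called, where 0.407% of genes were larger and 1.77% smaller.

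The enzymes act on a set of substrates and partners, read here from fixed lists. Collagen chain genes moved most in SMCs, where 17 of the 20 tested were higher and 2 lower, with a median log2 fold change of 1.14 beside 0.00 over all genes tested. The SMC and BMSC marker sums of these SMCs differed between genotypes, as given above. Their part in the values of this and the other lists was not tested. Cluster 15, with 51.1% of mutant and 7.52% of control SMCs, is led by *Col18a1*, *Col5a3* and *Col4a1* among others. The lists were read in the full classes and not without clusters 2 and 15. Without these clusters, the genes called in SMCs fell from 1143 to 479 higher and from 1144 to 524 lower. *Col15a1*, a collagen of vessel basement membranes, stood at 120 and 92.3 CPM in SMCs of mutants and at 14.0 and 8.81 CPM in controls (3.23, edgeR adjusted p = 5.67e-08). In CHOs 9 of 21 chains were higher and 11 lower (median −0.22). The cartilage chains *Col11a2* (1242 and 1215 against 2691 and 2621 CPM, −1.03) and *Col9a1* (1534 and 1410 against 2966 and 2915 CPM, −0.91) fell, and *Col10a1*, the collagen of hypertrophic cartilage, rose from 3490 and 2937 to 5678 and 5331 CPM (0.86). *Col3a1* rose by 1.71. All genes tested were called higher in 30.3% of cases in ECs, 28.2% in BMSCs and 31.2% in CHOs, with like shares lower, and several list counts in these classes lie near that share. ECs had 6 of 12 chains higher and 4 lower, with *Col15a1* up by 0.92. *Col1a1* was called lower in ECs (−2.15, 81.4 and 71.4 against 316 and 394 CPM). The free RNA estimated for it came to 76.2 and 67.9 CPM in mutants and to 532 and 487 CPM in controls. The mutant level lay near that estimate. The control level lay below it, so the estimate is too high there, and how much of the level is free RNA was not tested. For *Col1a2* (−1.83) the estimate was likewise above the level in control ECs, at 391.9 and 367 CPM beside 225 and 321 CPM. BMSCs had 7 of 18 higher and 3 lower, with *Col6a3* at 399 and 379 against 171 and 178 CPM (1.23). OBs had 4 of 16 chains higher, with *Col12a1* up by 1.28, and fibroblasts 1 of 21, *Col18a1* (0.93). *Col10a1* was also called higher in ECs (3.38), BMSCs (1.91), OBs (1.70) and SMCs (3.47). Its level in empty droplets was 4305 and 4194 CPM in mutants and 1668 and 1555 CPM in controls, and the free RNA estimated in the same classes came to 49.4 to 93.5 CPM in mutants and 28.0 to 67.6 CPM in controls, so that at least in BMSCs and OBs its levels (115 and 93.9 CPM, and 57.1 and 44.3 CPM, in mutants) lie near that background.

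Other genes of collagen modification, folding and processing followed the same split. In SMCs 12 of 14 were higher and 1 lower (median 1.01), with *Pcolce*, an enhancer of propeptide cleavage, at 389 and 351 against 94.7 and 90.01 CPM (2.02) and the prolyl 3-hydroxylase family gene *P3h3* up by 1.89, while *P3h2* fell (−0.98). In CHOs 3 of 17 were higher and 11 lower (median −0.23). The collagen chaperone *Serpinh1* stood at 1117 and 1079 CPM against 1852 and 1923 CPM (−0.70) and the propeptidase *Bmp1* at 62.7 and 59.1 against 118 and 119 CPM (−0.87), whereas *P3h2* rose by 1.09. CHOs thus had *P4ha2*, *Loxl4* and *Lox* higher while most tested genes of the folding and processing list were lower. ECs had 6 of 10 higher and 2 lower, with *Tll1* up by 2.22 and *P3h2* down (−1.63), BMSCs 6 of 15 higher and 3 lower, and OBs and fibroblasts none of 15 and of 17 by edgeR. Of the elastic fibre genes, *Eln*, which encodes elastin, a substrate of lysyl oxidases, fell in SMCs from 473 and 562 to 145 and 136 CPM (−1.86) and rose in ECs from 229 and 196 to 310 and 296 CPM (0.58), and *Fbn1*, the fibrillin of microfibrils, rose in SMCs (1.48), ECs (0.88), BMSCs (0.35) and CHOs (0.32). In counts, 4 of 5 were higher and 1 lower in ECs, 4 of 8 and 3 in BMSCs, 3 of 5 and 1 in SMCs, 1 of 3 and 2 in CHOs, none of 4 and 1 (*Fbn2*) in OBs, and 1 of 9 and none in fibroblasts (*Mfap2*, 1.07).

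Known targets of the oxygen-sensing HIF pathway, a list of 19 genes that holds none of the enzymes, had members called higher in all 6 classes, in differing number. All 16 tested were higher in CHOs (median log2 fold change 1.58) and all 10 in BMSCs (1.14), with 9 of 11 in ECs (0.84), 8 of 11 in SMCs (0.67), 7 of 10 in OBs (0.59) and 5 of 10 in fibroblasts (0.89). The medians over all genes tested lay between −0.01 and 0.00. Erythroid markers were also higher in mutants in all 6 classes, such as SMCs (480 and 539 against 143 and 194 CPM). Their part in the result was not tested. The mitophagy gene *Bnip3* stood at 289 and 277 CPM in CHOs of mutants and at 56.3 and 55.7 CPM in controls (2.42, edgeR adjusted p = 3.23e-12), and the glycolytic genes *Pgk1* and *Eno1* rose in ECs by 1.65 and 1.40. In SMCs the prolyl hydroxylase of HIF *Egln3* rose from 1.28 and 11.3 to 169 and 233 CPM (4.997), and *Ndrg1* was the gene of the list that fell there (−0.83). The control levels of *Egln3* were low and differed, as 1 UMI stands for 0.639 CPM in the SMCs of control 1. The size of its change is therefore uncertain. In OBs, where *Pgk1* (1.02) and *Bhlhe40* (1.30) rose, none of the 10 enzymes was called higher, beside 4.40% of all genes tested. A link between the genes of this list and the enzymes was not tested. The lists were chosen with earlier results of these data known, so their counts are a description.

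**Figure D5:**
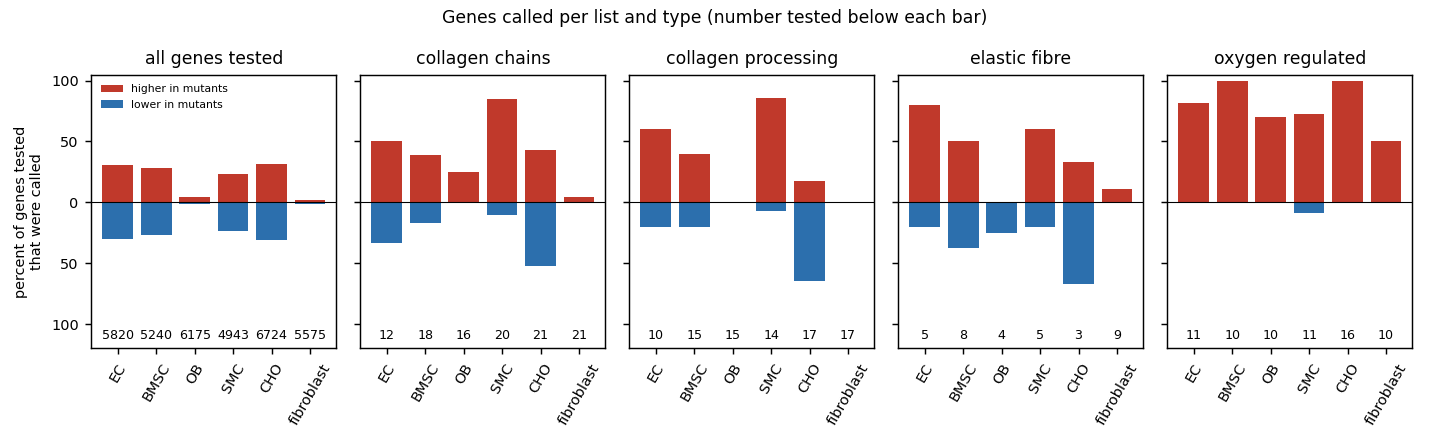
Percent of the genes tested in each list that were called higher (red, upward) or lower (blue, downward) in mutants, for 6 classes, beside all genes tested; the number tested stands under each bar. HIF targets called higher ranged from 5 of 10 in fibroblasts to 16 of 16 in CHOs. The share of collagen chains and of processing genes called higher was largest in SMCs (17 of 20 and 12 of 14).

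Free RNA in the droplets differed between genotypes, and not in 1 direction. In empty droplets *P4ha2* stood at 282 and 295 CPM in mutants against 71.4 and 69.4 CPM in controls, and *Loxl4* at 92.3 and 78.7 against 12.7 and 14.9 CPM. *Lox* was lower there in mutants, at 177 and 179 against 254 and 258 CPM, opposite to its change in CHOs, and *Loxl2* differed little, at 146 and 149.8 against 146 and 132 CPM. The estimated free RNA in a class was 1.12% to 2.43% of its UMIs in mutants and 1.59% to 4.05% in controls, which corresponds to between 3.16 and 7.18 CPM of *P4ha2* in the classes of mutants and 1.10 to 2.89 CPM in those of controls. Subtracting it left every call of the 10 enzymes as it was. The estimate exceeded the observed *Col1a1* and *Col1a2* in control ECs, so the subtraction is a rough check. In the 24 sums of 6 classes and 4 libraries, the genes whose log2 levels ran most like those of the enzymes were *Kazald1* for *Lox* (Pearson r = 0.93), *Egfr* for *Loxl1* (0.99), *Dap* for *Loxl2* (0.96), *Sobp* for *Loxl3* (0.95), *Rps26* for *Loxl4* (0.97), *Efr3b* for *Plod1* (0.92), *Scd1* for *Plod2* (0.96), *Jade2* for *Plod3* (0.90), *Dad1* for *P4ha1* (0.96) and *Rps26* for *P4ha2* (0.91). These points share classes and libraries, so the values describe the pattern over cell types more than that over genotypes.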

How the data were processed

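The authors trimmed reads with cutadapt 3.5, aligned them with STARsolo 2.7.10a to GRCm39 with GENCODE M26, and deposited unfiltered expected counts of UMIs per gene and barcode over exons and introns, reads of several genes being shared out by expectation maximization. Barcodes with at least 1000 UMIs and 800 features, under 15% mitochondrial and 5% hemoglobin UMIs and a complexity over 0.8 were kept, as in the study. A barcode was put in a class where its own marker score (at least 0.15, at least 3 markers, second score at most 0.7 of the best) and the name of its Leiden cluster (scanpy 1.11.5, resolution 1) agreed. The agreement was required after genotypes had been compared, because markers alone placed hypertrophic chondrocytes of mutants among BMSCs. No doublet caller was run, whereas the study used scDblFinder. The score ratio removes barcodes whose second class score is over 0.7 of the best, so doublets with a weaker second signal can remain. Sums were rounded and tested with edgeR 4.0.16 (quasi-likelihood, TMM, Benjamini-Hochberg over all genes of a class; R 4.3.3). The study describes the 2 libraries of a genotype as biological replicates, while the labels do not say whether each is 1 animal or a pool. The p-values rest on the spread between these libraries, which the fit moderates across genes. Values of genes below the filter come from a fit without it. Gene positions are from GENCODE M39. All 10 genes are named throughout; of each list at most 2 genes per direction and class with the largest called changes and no overlap, and for likeness the closest gene. The genes and lists were chosen with earlier results of these data known.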

Additional observations from a re-analysis of the deposited data

Results flagged for a closer look

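The genotype effect of a class differed from the mean of the other 5 classes in 22 of 60 tests (edgeR, interaction of genotype and class), and the differences are given on the log2 scale. In OBs they were −1.28 for *Lox*, −1.14 for *Loxl2*, −0.61 for *Loxl3*, −1.61 for *Loxl4*, −0.42 for *Plod1*, −0.48 for *Plod2*, −0.41 for *P4ha1* and −1.07 for *P4ha2*; the value for *Loxl4* is set against SMCs, ECs and fibroblasts with 0 to 4 control UMIs. In SMCs they were 2.13 for *Loxl2*, 1.93 for *Loxl3*, 0.58 for *Plod1* and 0.56 for *P4ha1*. In CHOs they were 1.01 for *Lox*, 0.52 for *Loxl1*, −0.98 for *Loxl3*, −0.42 for *Plod2*, −0.27 for *P4ha1* and 1.51 for *P4ha2*. In BMSCs they were −0.68 for *Lox*, −0.42 for *Loxl3* and 0.30 for *P4ha1*, and in ECs −0.55 for *Plod1*. These tests used the full classes, with clusters 2 and 15 kept. In no EC cluster was *Plod1* of both mutants below both controls. *Loxl1* lay below the expression filter in CHOs, ECs and OBs.

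*Loxl4* and *P4ha2* were also higher in mutants in data outside the classes. In barcodes without a named class the mean CPM of mutants was 6.49 times that of controls for *Loxl4* (93.6 and 73.3 against 11.8 and 13.9 CPM) and 2.63 times for *P4ha2* (372 and 331 against 128 and 138 CPM). Of the barcodes without a class by their markers, 769 of mutants and 275 of controls lie in clusters named CHO, so these values are not independent of those in CHOs. In empty droplets the mean CPM of mutants was 6.19 times that of controls for *Loxl4* and 4.09 times for *P4ha2*. In each case both mutant libraries lay above both controls, and these differences were not tested.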

How the results depend on the processing

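The main result, 20 higher and 3 lower calls, lay between 19 and 20 higher and 2 and 4 lower with each library left out in turn. Without clusters 2 and 15, 12 were higher; *Lox* (−0.35) and *P4ha1* (−0.24) in SMCs then changed sign without being called, and *Plod1* (0.026) lost its call. With no gene filter 5 were lower. With markers of the barcode alone 23 were higher and 5 lower, *Loxl1* in BMSCs fell (−0.16, adjusted p = 0.0155), and *P4ha2* in BMSCs rose by 2.42, in a class that then held 178 mutant barcodes of chondrocyte clusters. These last alternatives, on clusters and on markers alone, were chosen after seeing the data. With the replicate number as a block 20 were higher and 4 lower, *Plod2* in OBs being added; deviations of same-numbered libraries correlated between −0.08 and 0.03, so the numbers do not pair the libraries. The class with the highest control level was the same for all 10 genes when CPM was averaged over cells. DESeq2 gave 18 higher and 3 lower. The 23 calls under 16 alternatives give 368 values, of which 346 were still called in the same direction, 15 were not called, 2 changed sign without being called and 5 had no value because the gene then lay below the filter. Combinations that were not called became so in the same direction in 28 values, such as *Plod2* in ECs (0.44, adjusted p = 0.00132) with no gene filter, *P4ha2* in BMSCs (0.73, adjusted p = 4.33e-06) with the filterByExpr filter and *Loxl2* in fibroblasts (0.60, adjusted p = 0.0181) without mutant replicate 2. Small sums, as in control pericytes, limit what can be detected.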
